A study of Papio anubis with 40 samples.

Results

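Internal pieces of valine tRNAs (anticodons AAC and CAC) and of glycine tRNA (anticodon CCC) were rare in baboon serum, and those of the glycine tRNA were the more numerous. A fragment was counted as internal when it was 16 to 33 nucleotides (nt) long and its read was an exact part, beginning at base 5 or later, of 1 of 2 parent reads: tRF-37-79MP9P9NH57S362 for Val-AAC/CAC and tRF-33-Q1Q89P9L84220P for Gly-CCC. This gave 125 of the 58587 fragments in the table. Of these, 44 belonged to Val-AAC/CAC, with 473 counts over all libraries, and 81 to Gly-CCC, with 7672 counts. Together they held 8145 of 130892201 counts, or 0.00622%. The lengths and the reads chose the members, and no measured level entered the choice.

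Serum of 8 olive baboons (Papio anubis), 0.5 mL per draw, was taken at months 3, 6, 9 and 15 after menstrual tissue had been placed in the peritoneal cavity to induce endometriosis, and once before that, at month 0. Every animal was inoculated and labelled as having no further treatment, so there were no animals without inoculation, and time since the procedure cannot be told apart from age or anything else that differed between draws. Neither strain nor age is stated in the labels. Each of the 40 libraries is 1 draw of 1 animal. Library totals ran from 198840 to 6245450 counts, and the floor of 3 counts, up to which a fragment can go unseen, corresponded to 0.480 to 15.1 CPM, the unit used here for counts put on one scale across libraries. The lowest total was that of animal PA8001 at month 0. At month 15, PA8001 and PA8003 stood apart: they had 190261 and 147856 counts cut from the Val-AAC/CAC parent, where the other 6 libraries had 452630 to 843924, and PA8003 had the lowest scaling factor of all, 0.458. Results that rest on these libraries are given with and without them.

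A tRNA folds into a cloverleaf with an acceptor stem, a D arm, an anticodon arm and a T arm. In stressed cells, ribonucleases such as angiogenin cut in the anticodon loop and leave a fragment that keeps the mature 5′ end, and such 5′ fragments of glycine, valine and glutamate tRNAs are well known in serum and plasma. Internal fragments lack the 5′ end and lie mostly in the D arm and the first strand of the anticodon stem. Counts are relative to the library, so more of one fragment and less of the others cannot be told apart.

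The reads of the Val-AAC/CAC parent and of its named members are shown because their first and last bases define the members. Capitals mark the stretch from base 15 to base 23 of the parent that all of them share.
tRF-37-79MP9P9NH57S362: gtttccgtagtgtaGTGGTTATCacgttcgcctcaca
tRF-27-3L7L73V6M9M: ccgtagtgtaGTGGTTATCacgttcgc
tRF-28-3L7L73V6M9DV: ccgtagtgtaGTGGTTATCacgttcgcc
tRF-19-3L7L73JD: ccgtagtgtaGTGGTTATC
tRF-22-7L73V6M9M: gtgtaGTGGTTATCacgttcgc
tRF-21-9P9NH57SD: tgtaGTGGTTATCacgttcgc
tRF-20-S3RX8HYV: gtaGTGGTTATCacgttcgc
tRF-19-V47Q2WJM: taGTGGTTATCacgttcgc
tRF-17-73V6M9M: GTGGTTATCacgttcgc

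The Gly-CCC parent and 8 of its members are set out in the same way, with capitals from base 9 to base 27 of the parent. They show the spread of first bases over bases 5 to 9 and the 4 last bases, 27, 29, 30 and 32, that recur.
tRF-33-Q1Q89P9L84220P: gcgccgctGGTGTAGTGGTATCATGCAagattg
tRF-23-LY7L73HQDU: cgctGGTGTAGTGGTATCATGCA
tRF-24-Q89P9L84FS: gctGGTGTAGTGGTATCATGCAag
tRF-27-Q89P9L8422Q: gctGGTGTAGTGGTATCATGCAagatt
tRF-23-N3S3RQJVS: ctGGTGTAGTGGTATCATGCAag
tRF-24-N3S3RQJV0X: ctGGTGTAGTGGTATCATGCAaga
tRF-20-94V4SMIF: tGGTGTAGTGGTATCATGCA
tRF-23-94V4SMIFX: tGGTGTAGTGGTATCATGCAaga
tRF-19-RW18V6JU: GGTGTAGTGGTATCATGCA

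The parents themselves were minor reads. The Gly-CCC parent of 33 nt had 4094 counts, and the Val-AAC/CAC parent of 37 nt had 156. The last base of the Gly-CCC parent is not that of the longer reads of the same tRNA, which carry the difference C33G (longer read's base first, counted from 1 at the 5′ end of the read, then the parent's base). No Gly-CCC member ended at base 33. The Val-AAC/CAC parent also differs from some longer reads that share its first 33 bases. Of these, tRF-35-79MP9P9NH57S3U (5080 counts) carries G34C and tRF-34-79MP9P9NH57S1O (1133 counts) A34C. The read tRF-34-79MP9P9NH57S15 (8147 counts) has no difference. The NCBI RefSeq annotation of the baboon assembly Panubis1.0 lists 8 genes for TRNAV-AAC, 12 for TRNAV-CAC and 6 for TRNAG-CCC. No build is named for the counts, and no locus was assigned to a read.

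All 81 Gly-CCC members were absent from longer reads of other tRNAs, read in the register of the parent with more than 2 mismatches to it. Of the 44 Val-AAC/CAC members, 7 were, and these held 165 of the 473 counts. They include tRF-27-3L7L73V6M9M (bases 5 to 31) and tRF-28-3L7L73V6M9DV (bases 5 to 32). The others can come from more than one tRNA. An example is the 16 nt fragment tRF-16-V4V47QD (bases 8 to 23), chosen after its values were seen, which lies within 459 longer reads of other tRNAs with 120892 counts.

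Set against all fragments cut from the same parent read, internal fragments made up 0.0160% for Gly-CCC (95% Wilson interval 0.0156% to 0.0163%) and 0.00134% for Val-AAC/CAC (0.00123% to 0.00147%). These intervals pool all libraries and cover counting error only. The variance between libraries was 13.9 times that of counting for Gly-CCC and 4.91 times for Val-AAC/CAC. For each 1000000 counts of 5′ fragments, those that begin at base 1, the Gly-CCC set averaged 166.8 ± 52.9 counts and the Val-AAC/CAC set 17.4 ± 14.7 (SD, n = 40 libraries). The Gly-CCC value was the higher in 39 of 40 libraries. In the remaining one, PA8001 at month 0, both sets had 0 counts, where a common share would give 17.9 counts for Gly-CCC and 0.158 for Val-AAC/CAC. Among its 111896 Gly-CCC counts, a count of 0 allows a share of up to 0.00268%. With the 7 unshared Val-AAC/CAC members alone, the mean share of that set per library was 0.000688%, against 0.00174% with all 44.

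Glu-CTC and Lys-CTT, whose internal fragments were found in a like way from their own parent reads, gave larger shares. For Lys-CTT, whose parent read is longer, a limit on the last base was added to the rule. Parts of that read past the limit entered only the denominator, so its share is not fully comparable. The Gly-CCC set averaged 0.0164% ± 0.00523 of its parent-matched counts and the Val-AAC/CAC set 0.00174% ± 0.00147, against 1.37% ± 0.554 for the 125 fragments of Glu-CTC and 0.895% ± 0.831 for the 105 of Lys-CTT (SD, n = 40 libraries). Gly-CCC lay below Glu-CTC in 40 of 40 libraries and below Lys-CTT in 39. The 5′ fragments of both tRNAs were abundant, with 47277473 counts for Gly-CCC and 35171366 for Val-AAC/CAC.

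By first base, the Gly-CCC counts dropped steeply over the first bases and then ran level. There were 682677 counts at base 2, 32181 at base 3 and 6962 at base 4, outside the rule, and inside it 1403 at base 5, 1594 at base 6, 1462 at base 7, 1543 at base 8 and 944 at base 9. Base 10 had 75 counts and base 11 had 341. Bases 5 to 9 each held between 12.3% and 20.8% of the internal counts, with no first base standing out among bases 5 to 8.

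**Figure D1:**
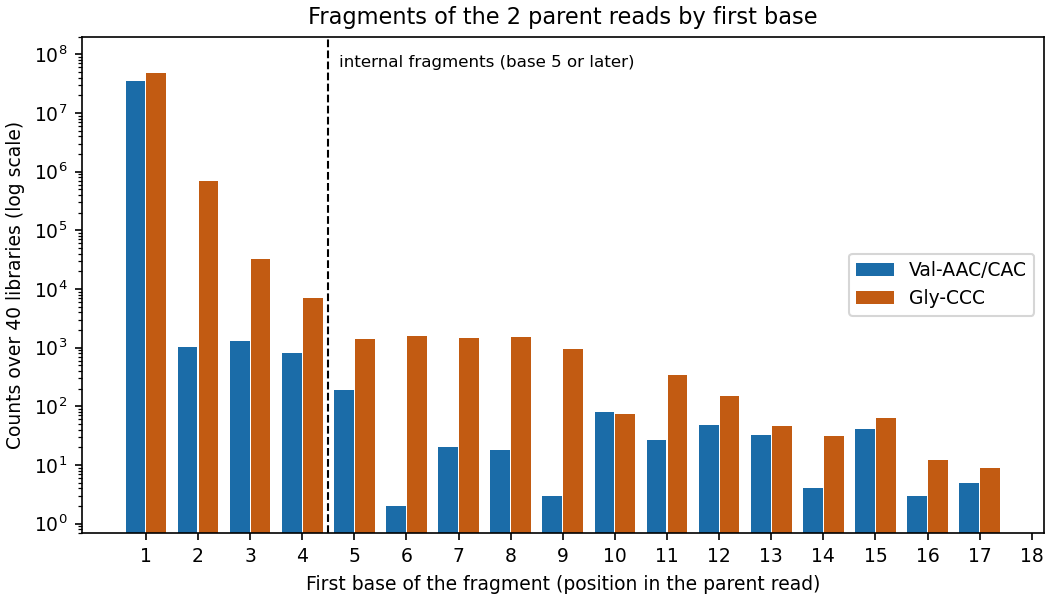
Counts over 40 libraries by first base of the fragment, in positions of the parent read, for both parents on a log scale; the dashed line separates base 5 and later from the bases before it. Gly-CCC stays between 944 and 1594 counts at bases 5 to 9 and drops to 75 at base 10. Val-AAC/CAC falls from 810 counts at base 4 to 189 at base 5 and 2 at base 6, with a separate peak at base 10 (81 counts). The Val-AAC/CAC members that begin at base 10 also lie in longer reads of other tRNAs.

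Val-AAC/CAC did not run level. Its internal counts gathered at base 5 with 189 of 473 counts and base 10 with 81, followed by base 12 with 48 and base 15 with 41. Between bases 5 and 10, base 6 had 2 counts and base 9 had 3. Every member that begins at base 10, 12 or 15 also lies in longer reads of other tRNAs. For tRF-22-7L73V6M9M (bases 10 to 31), these were 8 reads with 26 counts. The tRNA of origin at those first bases is therefore not settled. The first base of the fragment is C at base 5 and G at bases 10, 12 and 15, and the base before it is T, A, T and A in that order. Before base 5 there were 1018 counts at base 2, 1323 at base 3 and 810 at base 4. The 189 counts at base 5 thus lie on a fall from base 3 to base 6 and are not a separate peak.

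By last base, the internal fragments mostly shared the ends of the 5′ fragments of the same tRNA. Of the Gly-CCC internal counts, 30.6% ended at base 27, 24.7% at base 29, 27.2% at base 30 and 11.5% at base 32, against 34.2%, 24.3%, 19.0% and 19.4% of the 5′ fragments. Base 28, between these ends, held 1.73% of internal and 1.85% of 5′ counts. The 4 ends were the same, and the share at base 32 was the one furthest below that of the 5′ fragments.

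For Val-AAC/CAC, 55.2% of internal counts ended at base 31 and 27.1% at base 32, against 75.2% of the 5′ fragments at base 31 and 7035364 of their 35171366 counts at base 32. An end at base 23 held 7.19% of internal counts and 0.128% of 5′ counts. The largest internal member with that end was tRF-19-3L7L73JD (bases 5 to 23), with 19 counts in 10 libraries. All members with that end also lie in longer reads of other tRNAs. They were 11 reads with 124 counts for tRF-19-3L7L73JD and 459 reads with 120892 counts for tRF-16-V4V47QD. The larger internal share at base 23 can therefore come from other tRNAs.

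**Figure D2:**
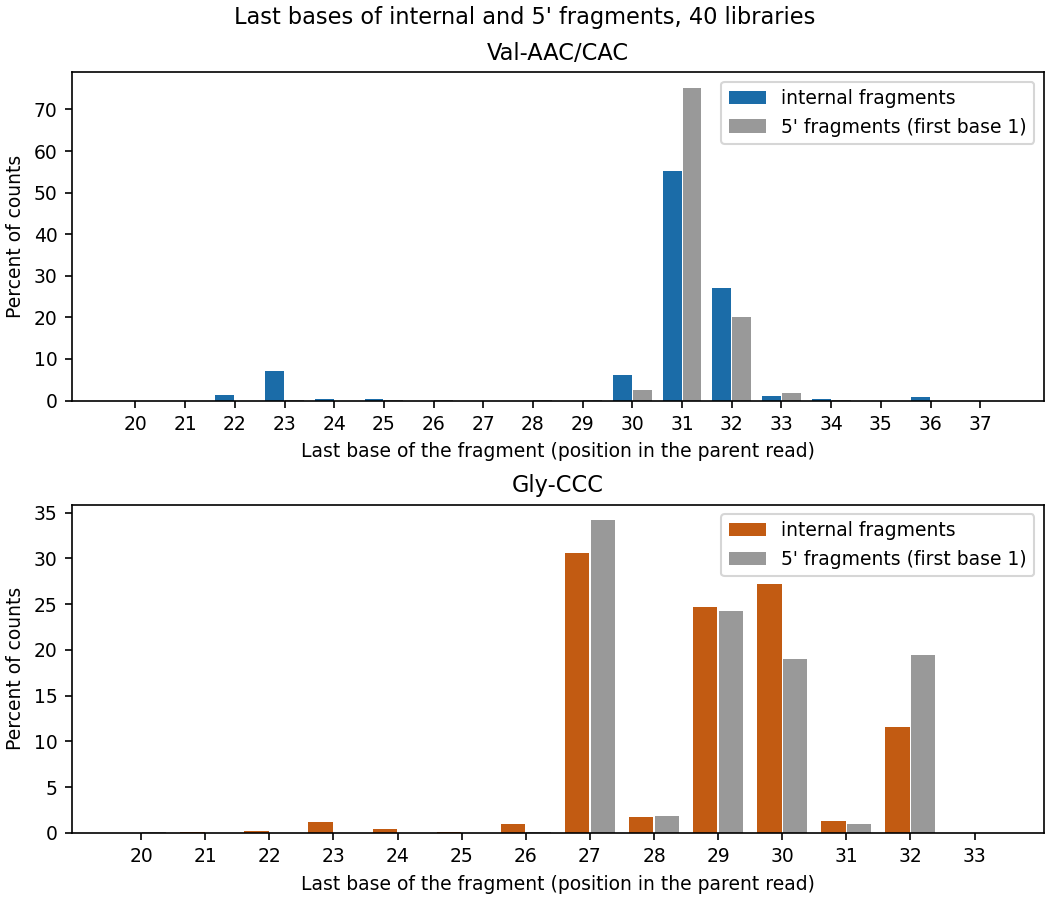
Percent of counts by last base of the fragment, in positions of the parent read, for internal fragments (coloured) and 5′ fragments that begin at base 1 (grey), over 40 libraries. Internal and 5′ fragments of Gly-CCC share ends at bases 27, 29, 30 and 32. In Val-AAC/CAC, base 23 holds 7.19% of internal and 0.128% of 5′ counts. All Val-AAC/CAC members that end at base 23 also lie in longer reads of other tRNAs.

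First and last base were not spread alike in Gly-CCC. Of the fragments that began at base 5, 42.2% ended at base 27, whereas base 7 was followed most often by an end at base 29 (33.2%) and base 8 by an end at base 30 (35.6%). Fragments that began at base 5 ended at base 32 in 15.7% of counts, those at base 9 in 5.93%. The largest Gly-CCC members by total were therefore tRF-23-LY7L73HQDU (bases 5 to 27, 592 counts), tRF-23-94V4SMIFX (8 to 30, 549 counts) and tRF-23-N3S3RQJVS (7 to 29, 486 counts), all 23 nt long. By mean level over 40 libraries tRF-23-94V4SMIFX led at 4.43 ± 2.56 CPM, ahead of tRF-23-LY7L73HQDU at 4.19 ± 3.18 CPM, a gap well inside their SDs.

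**Figure D3:**
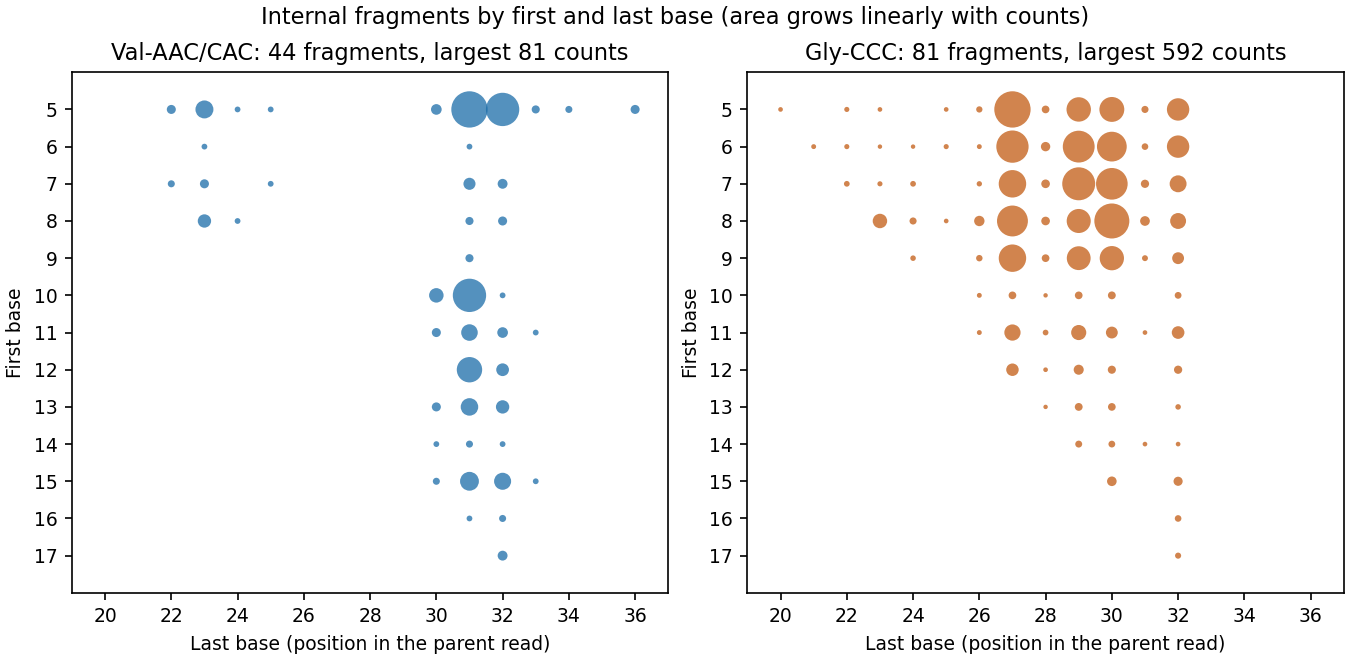
Internal fragments by first base (down) and last base (across), in positions of the parent read, with the area of each point growing with its counts over 40 libraries, scaled within each panel. Gly-CCC forms a block at first bases 5 to 9 with columns at last bases 27, 29, 30 and 32 (largest 592 counts); Val-AAC/CAC has its largest points at bases 5 to 31 and 10 to 31 (81 and 68 counts).

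Most members were close to the limit of detection. No member was seen in all 40 libraries, and the most widespread was found in 39. A total of 1 count was all that 12 Val-AAC/CAC and 4 Gly-CCC members had. Among the Val-AAC/CAC members, tRF-27-3L7L73V6M9M was the most abundant, with 0.652 ± 0.496 CPM, 81 counts and a count in 35 of 40 libraries. Next came tRF-28-3L7L73V6M9DV with 0.617 ± 0.840 CPM in 26 libraries and tRF-22-7L73V6M9M with 0.522 ± 0.565 CPM in 23. These levels do not differ beyond their spread.

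The share of internal fragments was compared across months within each parent. For Gly-CCC it averaged 0.0146% ± 0.00664 of parent-matched counts at month 0, 0.0155% ± 0.00223 at month 3, 0.0182% ± 0.00636 at month 6, 0.0155% ± 0.00309 at month 9 and 0.0184% ± 0.00631 at month 15 (SD, n = 8 each). At month 15 the lowest, median and highest libraries were at 0.00848%, 0.0173% and 0.0310%, against 0%, 0.0163% and 0.0203% at month 0. The months overlapped, and 5 of 8 animals were higher at month 15 than at month 0. That count includes PA8001, whose 0% at month 0 also lowers the mean of that month. The other libraries of month 0 ran from 0.0109% to 0.0203%. Both extremes of month 15 were the libraries that stood apart, PA8003 the lowest and PA8001 the highest. Without them the month 15 mean was 0.0179% ± 0.00194.

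For Val-AAC/CAC the share averaged 0.00118% ± 0.000808 at month 0, 0.00159% ± 0.000745 at month 3, 0.00125% ± 0.000623 at month 6, 0.00143% ± 0.000644 at month 9 and 0.00325% ± 0.00257 at month 15. The lowest, median and highest values of month 15 were 0.000948%, 0.00220% and 0.00744%, against 0%, 0.00108% and 0.00243% at month 0. The highest 2 were again PA8003 and PA8001, with 11 and 13 internal counts, and 6 of 8 animals were higher at month 15 than at month 0. Among these, the direction in PA8001 is not settled. At month 0 a floor of 3 counts was 0.0256% of its parent-matched counts, above every Val-AAC/CAC share. Without those libraries the mean was 0.00195% ± 0.00108. In PA8003 at month 15 the denominator was 147856 counts, so each count weighed more there. The variance between libraries was 13.9 times that of counting alone for Gly-CCC and 4.91 times for Val-AAC/CAC, and 7.997 and 3.02 times without the month 15 draws of PA8001 and PA8003.

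**Figure D4:**
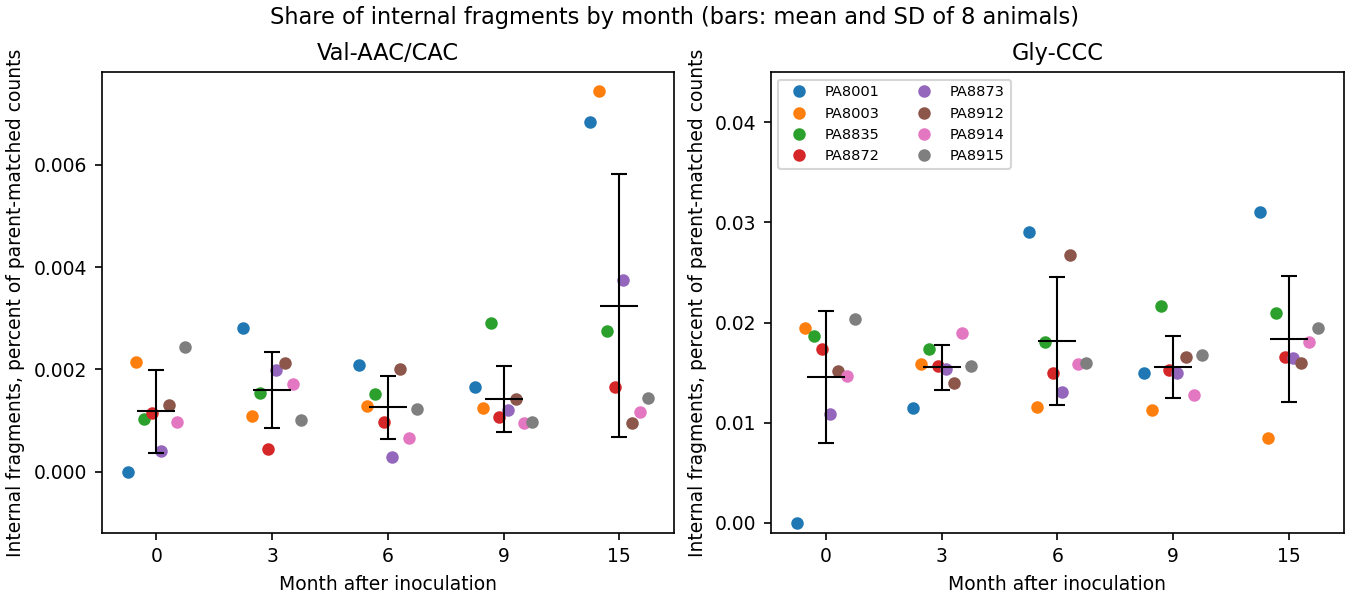
Internal fragments as a percent of parent-matched counts in each animal (coloured points) by month, with bars for the mean and SD of 8 animals; the vertical scales of the panels differ. Gly-CCC values overlap at all months, and the highest Val-AAC/CAC values are those of PA8003 (0.00744%) and PA8001 (0.00683%) at month 15.

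Within the Gly-CCC internal set, fragments that end at base 32 took a larger share at month 15. In month order, 10.1% ± 3.40 (n = 7), 9.03% ± 6.48, 9.37% ± 3.90, 9.53% ± 6.18 and 22.1% ± 12.6 of internal counts ended there at months 0, 3, 6, 9 and 15 (SD, n = 8 for the later months; PA8001 had no internal count at month 0). The share was higher at month 15 than at month 0 in 7 of 7 animals, and higher than the animal's own mean of months 3, 6 and 9 in 8 of 8. The lowest, median and highest month 15 libraries were at 9.76%, 16.7% and 47.2%, against 4.96%, 11.2% and 15.1% at month 0, so the ranges overlapped between animals. Without PA8001 and PA8003 the month 15 mean was 15.9% ± 4.62, and all 6 remaining animals were still higher than at month 0.

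The 5′ fragments of Gly-CCC that end at base 32 also had their highest share at month 15 and the next at month 0, at 21.3% ± 10.8, 16.7% ± 7.60, 14.5% ± 5.56, 13.8% ± 3.24 and 35.0% ± 16.5 of 5′ counts in month order (n = 8 each). Without PA8001 and PA8003 the month 15 mean was 28.1% ± 9.99. They too were above the animal's own mean of months 3, 6 and 9 in 8 of 8 animals. The 5′ and internal shares come from the same libraries. Ends at base 27 took their lowest share at month 15: 20.2% ± 8.04 of internal counts, or 23.5% ± 5.33 without PA8001 and PA8003, against 32.8% ± 10.0 at month 0 and 31.7% ± 6.67 for the mean of months 3, 6 and 9, with 6 of 8 animals below their own mean of those months, or 4 of 6 without those libraries. Ends at base 29 were also lowest at month 15, at 19.5% ± 6.34 of internal counts, or 22.2% ± 4.16 without those libraries. At month 0 they held 27.2% ± 5.42 (n = 7). At month 15, 2 of 8 animals lay above their own mean of months 3, 6 and 9. No test was made of these shares, which are sums over members.

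**Figure D5:**
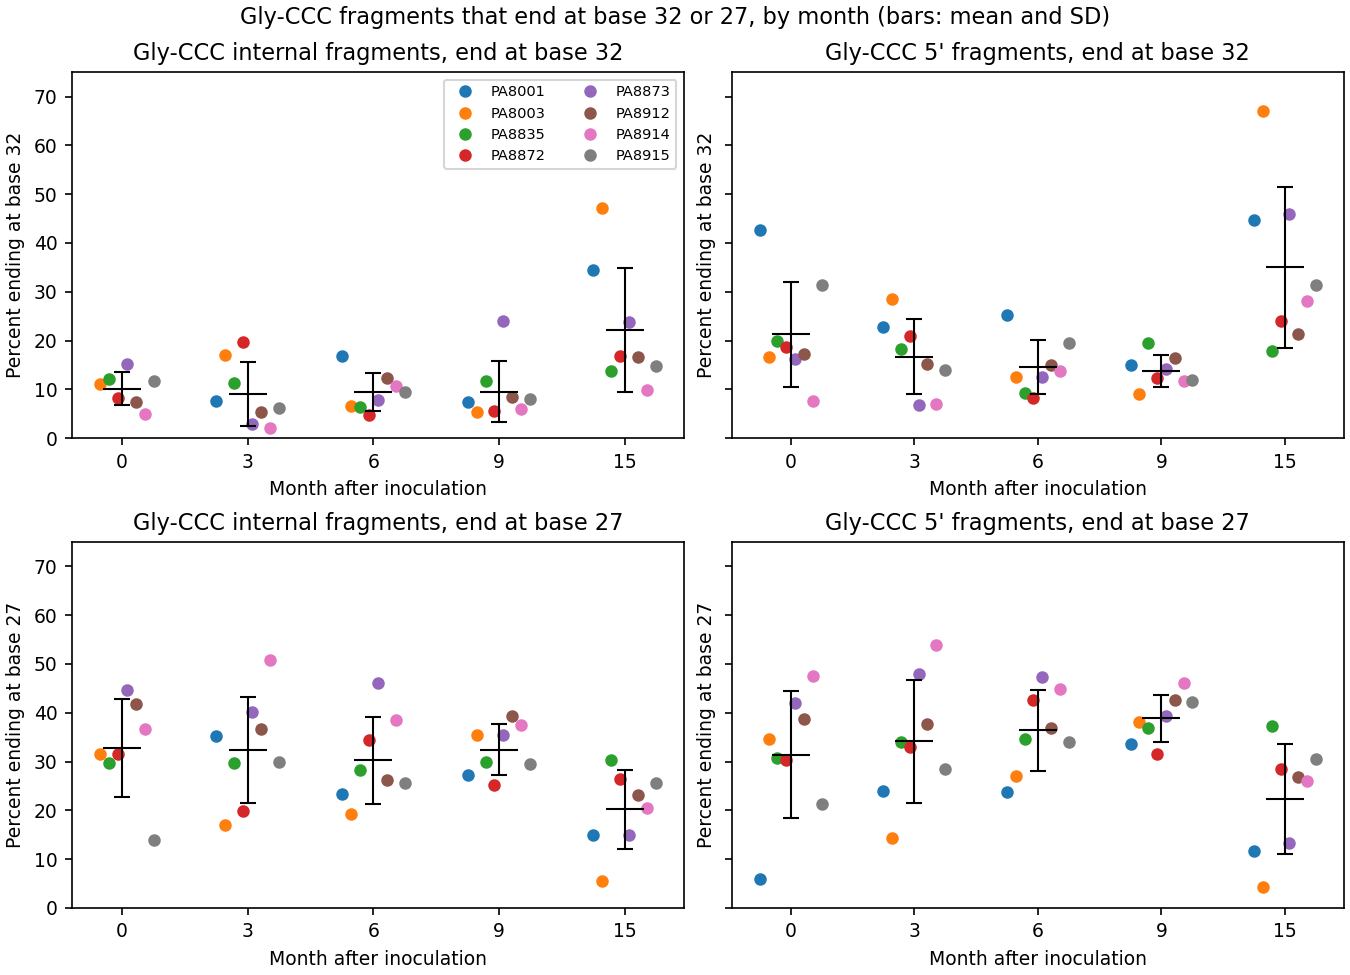
Percent of Gly-CCC fragments ending at base 32 (top) or base 27 (bottom) by month, for internal fragments (left) and 5′ fragments (right), with each animal as a coloured point and bars for mean and SD. At month 15 the internal end-32 share averages 22.1%, against 10.1% at month 0, and the 5′ share 35.0% against 21.3%.

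First bases varied too. Starts at base 8 made up 28.1% ± 9.32 of the Gly-CCC internal counts at month 15, against 18.2% ± 6.33 at month 0 (n = 7) and 19.6% ± 2.29 for the mean of months 3, 6 and 9. At month 15, 8 of 8 animals lay above their own mean of those months, and 5 of 7 above month 0. Without PA8001 and PA8003 the month 15 mean was 30.1% ± 9.90. At first bases 5, 6, 7 and 9, 4, 5, 2 and 1 of 8 animals lay above their own mean of months 3, 6 and 9. Starts at base 5 in Val-AAC/CAC, 58 of 99 counts at month 15 and 23 of 77 at month 0, averaged 56.4% ± 16.6 at month 15, against 39.1% ± 8.39 for months 3, 6 and 9, with 8 of 8 animals higher. Without PA8001 and PA8003 it was 50.2% ± 14.2 at month 15, higher in 6 of 6 animals. Each of those Val-AAC/CAC values rests on 8 to 22 internal counts per library at month 15. Ends at base 32 took 33.3% ± 13.9 of the Val-AAC/CAC internal counts at month 15 (33.7% ± 13.9 without those libraries) and 25.5% ± 3.35 at months 3, 6 and 9, with 6 of 8 animals higher.

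Single fragments were tested with edgeR's quasi-likelihood test over 2447 fragments that passed a filter on low counts. Of the Gly-CCC members, 16 of 81 entered the test. They begin at bases 5 to 9, end at bases 27, 29, 30 or 32 and hold 78.3% of the Gly-CCC internal counts. None of the 44 Val-AAC/CAC members entered it, the largest having a total of 81 counts. The filter kept members by their level alone.

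Against month 0, no Gly-CCC member passed at month 3, 6, 9 or 15 (Benjamini-Hochberg adjusted p under 0.05). Of all fragments, 0% passed at months 3, 6 and 9, and 2.37% at month 15 (2.21% higher and 0.163% lower). At an unadjusted p under 0.05 there were 0 of 16 members at months 3, 6 and 9. Of all 2447 fragments, 73, 310 and 201 had such a p at those months. At month 15 there were 3 of 16 members, where 509 of all 2447 fragments had such a p, a share near that of the members. DESeq2 and limma-voom likewise passed 0 members in each of these comparisons. The median log2 change of the 16 members at month 15 was -0.19, beside 0.05 over all fragments tested.

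The values of those 3, none of which passed, are given as a description, and they differ in their last base. tRF-27-Q89P9L8422Q (bases 6 to 32) was at a lowest, median and highest of 0.482, 2.36 and 20.4 CPM at month 15, against 0, 1.43 and 2.96 CPM at month 0. Its log2 change was 1.43 ± 0.614 (SE; edgeR adjusted p = 0.192), higher in 7 of 8 animals. tRF-23-94V4SMIFX (8 to 30) stood at 6.43 ± 2.84 CPM at month 15 and 3.07 ± 2.36 CPM at month 0 (SD, n = 8 each), with a log2 change of 1.11 ± 0.482 and an adjusted p from edgeR of 0.195. It was higher in 5 of 8 animals. tRF-19-RW18V6JU (9 to 27) was at 1.47 ± 1.08 CPM at month 15 and 2.71 ± 1.67 CPM at month 0, a log2 change of -0.92 ± 0.423 (edgeR adjusted p = 0.211), and lower in 6 of 8 animals. Without PA8001 and PA8003 the month 15 means of the 3 were 1.95, 5.66 and 1.61 CPM, in the order given. With them, tRF-27-Q89P9L8422Q averaged 5.53 CPM, against 1.25 CPM at month 0. In PA8001 the floor of 3 counts at month 0 was 15.1 CPM, so its direction is not settled for any of them.

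At month 15 against the mean of months 3, 6 and 9, 2 of the 16 members passed, 1 higher and 1 lower, where 39.7% of all fragments passed (23.7% higher and 16% lower). tRF-27-Q89P9L8422Q rose by a log2 change of 1.81 ± 0.470 (edgeR adjusted p = 0.00376), at 5.53 ± 7.05 CPM at month 15 and 1.27 ± 0.546 CPM over months 3, 6 and 9 (SD, n = 8). It was higher in 6 of 8 animals. When PA8001 and PA8003 were left out at month 15, the log2 change was 0.92 and the adjusted p 0.247. Outside those libraries the fragment had 36 of its 97 counts of month 15.

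The other was tRF-19-RW18V6JU, which fell by a log2 change of 0.99 ± 0.359 (edgeR adjusted p = 0.0289). Its lowest, median and highest were 0, 1.05 and 3.03 CPM at month 15, against a mean of 2.96 ± 0.805 CPM over months 3, 6 and 9. All 8 animals were lower than their own mean of those months. It lost the call in 10 of 17 alternatives, with adjusted p from 0.0206 to 0.712 and a log2 change from -1.22 to -0.82, and leaving out PA8001 and PA8003 at month 15 gave an adjusted p of 0.138. With 1 animal left out at all months, 1 member passed without PA8001, PA8872, PA8873, PA8914 or PA8915, and 0 of 12 tested passed without PA8003. The share of all fragments passing is not given for these fits, so they do not show whether the members or the whole test moved.

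By last base, the tested internal members are set beside the 5′ fragment with the same end. The single member that ends at base 32 had a log2 change of 1.81, and the 5′ fragment tRF-32-Q1Q89P9L8422Q one of 1.58 ± 0.268 (edgeR adjusted p = 0.000339; log2 0.97 and adjusted p 0.0185 without PA8001 and PA8003 at month 15). The 5 members that end at base 27 had a median of -0.59, from -0.99 to 0.36, and the 5′ fragment tRF-27-Q1Q89P9L842 had -0.80 ± 0.315 (edgeR adjusted p = 0.0413; 0.145 without those libraries). For base 30 the 5 members had a median of 0.63, all above 0, and the 5′ fragment had 0.09. By first base (5, 6, 7, 8 and 9), these members averaged 3.12, 3.67, 3.89, 6.43 and 3.33 CPM at month 15. Without PA8001 and PA8003 they averaged 2.07, 2.16, 3.51, 5.66 and 2.09 CPM. Over months 3, 6 and 9 they averaged 1.88, 3.16, 3.21, 4.21 and 1.79 CPM in all 8 animals. For base 29 the median log2 change was -0.43 and that of the 5′ fragment -0.19. All these values share their libraries.

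The filter removed the end-32 fragments that begin at bases 5, 7, 8 and 9. With no filter, tRF-28-LY7L73HQP0DE (bases 5 to 32), tRF-26-N3S3RQJVDEE (7 to 32) and tRF-25-94V4SMIFFN (8 to 32) passed with log2 changes of 1.73 ± 0.420, 1.87 ± 0.454 and 1.56 ± 0.462 (edgeR adjusted p = 0.00315, 0.00306 and 0.0254). tRF-28-LY7L73HQP0DE had 106 counts at month 15, of which 27 were outside PA8001 and PA8003, and tRF-26-N3S3RQJVDEE had 59, of which 27 were. Among all fragments, 1311 of 33929 passed with no filter. The other members that did were tRF-27-Q89P9L8422Q again, tRF-16-94V4SMB (8 to 23) and tRF-21-94V4SMIFB (8 to 28), both higher at month 15, and tRF-16-S3RQJVB (12 to 27), lower. With PA8001 and PA8003 also left out at month 15, 0 members passed, where 204 of 31649 fragments did, and the 3 end-32 members had edgeR adjusted p of 1, 0.561 and 0.207. The unfiltered members were named after their values were seen.

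A joint test of any month passed 1 of 16 Gly-CCC members, tRF-27-Q89P9L8422Q, where 16.2% of all fragments passed. DESeq2 passed 2 members, where it passed 657 of 2447 fragments, and limma-voom 1, where it passed 394. Leaving out any 1 of 7 animals, all but PA8915, took the joint count to 0, which is given without the share of all fragments. With no filter, where 610 of 33929 fragments passed, the 1 member that passed was another, tRF-26-N3S3RQJVDEE. The joint call was also lost when PA8001 and PA8003 were left out at month 15, in which case 0 of all 2591 fragments tested passed.

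The Val-AAC/CAC members can be given only as values. tRF-27-3L7L73V6M9M had 7, 27, 11, 19 and 17 counts at months 0, 3, 6, 9 and 15, with means of 0.218, 1.06, 0.396, 0.772 and 0.813 CPM. At month 3 it was present in all 8 libraries, at 0.583 to 1.40 CPM, and at month 0 it was at 0 in 3 libraries, with a highest of 0.466 CPM. These values rest on 0 to 5 counts per library, and in PA8001 at month 0 a floor of 3 counts is 15.1 CPM, above every value of this fragment, so whether the months differ could not be read at this depth.

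tRF-28-3L7L73V6M9DV, 1 base longer, had 7, 8, 15, 11 and 27 counts at months 0, 3, 6, 9 and 15. At month 15 its lowest, median and highest were 0, 1.03 and 4.33 CPM, against 0, 0 and 1.67 CPM at month 0. tRF-22-7L73V6M9M (bases 10 to 31) averaged 0.275 ± 0.485 CPM at month 0, 0.944 ± 0.581 CPM at month 6, its highest mean, and 0.336 ± 0.550 CPM at month 15. tRF-20-S3RX8HYV (12 to 31) had 2 counts at month 15 and 13 at month 0, and tRF-17-73V6M9M (15 to 31) had none at months 0 and 6 and 11 at month 9.

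Neither parent passed against month 0 or against the mean of months 3, 6 and 9. In the joint test the Val-AAC/CAC parent passed (edgeR adjusted p = 0.0437) and the Gly-CCC parent did not (0.0938). The Val-AAC/CAC call was lost when PA8001 and PA8003 were left out at month 15, since 0 fragments passed then. The Gly-CCC parent was at 24.5 ± 15.0 CPM at month 15 and 62.5 ± 49.7 CPM at month 0, a log2 change of -1.19 ± 0.566 (edgeR adjusted p = 0.227), and lower in 7 of 8 animals. The Val-AAC/CAC parent was at 2.88 ± 2.66 CPM at month 15 and 0.428 ± 1.03 CPM at month 0, a log2 change of 3.01 ± 0.866 (edgeR adjusted p = 0.0537), with 5 of 8 month 0 libraries at 0.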

How the data were processed

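The authors deposited whole-number counts per distinct fragment sequence and library, with no scaling, and a second table with the reads. Per the labels' protocols, adapters were ligated to both RNA ends, molecular identifiers came in at cDNA synthesis, and sequencing was on a NovaSeq X. R 4.5.0, edgeR and limma are named in the submitters' processing notes. The aligner, the build and whether identifiers were used in counting are not given in any source used, so intervals and floors cover counting error only. Of 60201 lines, 1614 without a fragment ID (0.0805% of counts) were left out.

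Members, lists, parents and tests were chosen with earlier results of these data known. Levels are CPM after trimmed-mean (TMM) scaling. edgeR 4.0.16 in R 4.3.3 fitted month, with animal as a block, to all 40 libraries, for 2447 fragments kept by filterByExpr (minimum count 10), two-sided, adjusted over all fragments. Each animal was drawn at every month, so the animal pairs the libraries: same-animal deviations correlated at a mean of 0.187 and others at -0.0247. Sums over members were given no test. Wilson intervals came from Python. DESeq2 1.42.0 and limma 3.58.1 (voom) served as alternatives. The code was tested on simulated data. Named members were the 6 most abundant per parent, those that passed or had the smallest p, and the most abundant at each first base with at least 5% of counts. No libraries held identical counts. A p-value measures only the spread between these draws.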

Additional observations from a re-analysis of the deposited data

Results flagged for a closer look

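Values of the 2 internal sets, of the 2 parents and of named members were checked within each month for 1 library far from the other 7, its gap to the nearest, as a share of the month's range, being above Dixon's 95% critical value. Of 65 groups checked, 8 held such a library. The rate of 1 in 20 holds only for independent, normally distributed values. Many of these values lie near the floor and the groups share libraries, so the count of 8 does not show an excess.

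The internal share of Val-AAC/CAC in PA8835 at month 9 was 0.00291% of parent-matched counts, the highest of the month. The internal share of Gly-CCC in PA8001 at month 0 was 0%, the lowest of the month, in the library with the lowest total of all. PA8835 was also the highest at month 6 for tRF-23-94V4SMIFX, at 8.16 CPM, and for tRF-23-N3S3RQJVS, at 12.4 CPM.

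At month 15, tRF-20-94V4SMIF stood at 13.6 CPM in PA8001, the highest of the month. tRF-27-Q89P9L8422Q stood at 4.08 CPM in PA8003 at month 3. The Val-AAC/CAC parent tRF-37-79MP9P9NH57S362 reached 2.96 CPM in PA8872 at month 0 and 8.67 CPM in PA8873 at month 15.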

How the results depend on the processing

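The count of Gly-CCC members passing at months 3, 6, 9 and 15 against month 0 stayed at 0 under all 18 alternatives of each comparison. For month 15 against months 3, 6 and 9, the count of 2 (972 of all 2447 fragments) became 7 with no filter (1311 of all 33929). It became 1 with library totals only, 1 without the animal block and 0 to 2 with 1 animal left out. With PA8001 and PA8003 left out at month 15 it was 0. The joint count of 1 became 2 with DESeq2, 0 with library totals only, 0 to 1 with 1 animal left out (0 in 7 of 8 cases) and 0 with the same libraries left out. Where no count over all fragments is given, these counts do not show whether the members moved apart from the rest. With no filter 1 Val-AAC/CAC member, tRF-17-73V6M9M, passed the joint test (edgeR adjusted p = 0.0109), 1 of 32 members where 610 of 33929 fragments passed. It had 21 counts in 10 libraries. No filter with those libraries left out, an alternative added after seeing the data, gave 0 Gly-CCC members in both tests and 1 Val-AAC/CAC member in the joint test. Of all 31649 fragments, 204 passed against months 3, 6 and 9 in that alternative and 139 in the joint test. Counting from base 4 gave shares of 0.0329% for Gly-CCC and 0.00509% for Val-AAC/CAC. Fragments that begin at base 4 had 6962 and 810 counts in that order, beside 7672 and 473 internal counts. Also added after seeing the data were members in no longer read of another tRNA, and the addition of parts of longer reads. Both shares stayed within 1 SD between libraries of their main values, which is a wide limit. With unshared members alone the Val-AAC/CAC share fell from 0.00174% to 0.000688%, beside an SD of 0.00147. Another form of the first compared longer reads with the parent from the read's own first base. It also counts reads of the same tRNA that begin later as other tRNAs. It left 0 members, gives no value and cannot show whether a member is shared. Low counts are the main limit, since 3 counts equalled up to 15.1 CPM and no Val-AAC/CAC member reached the filter.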
